A study of Mus musculus with 6 samples.

Results

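The transcription factor NRF2 and the antioxidant enzymes of the kidney were followed through 36 genes: NRF2 itself (Nfe2l2) and its repressor KEAP1, quinone, heme and xenobiotic enzymes, the glutathione and thioredoxin systems, peroxiredoxins with sulfiredoxin, superoxide dismutases, metallothioneins and methionine sulfoxide reductases. The genes were taken by symbol from a named list that leaves out glutathione S-transferases, and all 36 were among the 24434 symbols of the count table and among the 16373 that passed a filter on low counts. The series measured polyadenylated RNA of whole mouse kidney in 3 libraries labelled db/m and 3 labelled db/db, all from animals on normal chow. The db allele disrupts the leptin receptor throughout the body, so db/db animals become obese and diabetic and db/m animals, which carry a single copy, serve as lean controls. Age, sex and strain are unstated in the sources used here. It is also unstated whether the libraries are separate animals, so the spread behind each p-value is that of these libraries and may be technical.

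NRF2 is made continuously and, in resting cells, is bound by KEAP1 and sent for degradation. Oxidants and electrophiles modify cysteines of KEAP1, after which NRF2 enters the nucleus, pairs with small MAF proteins and binds antioxidant response elements near genes for glutathione synthesis, thioredoxin recycling, quinone reduction and heme breakdown. This control acts mostly on NRF2 protein, which was not measured here. Glutathione and thioredoxin, both kept reduced at the cost of NADPH, supply the electrons with which glutathione peroxidases and peroxiredoxins remove peroxides. Proximal tubule cells make the plasma glutathione peroxidase GPX3 and take up and rebuild glutathione.

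Sequence before the annotated start was searched for TGACNNNGC, a short form of the antioxidant response element, on both strands. RefSeq promoter windows of GRCm38.p6, from 250 bases before to 50 bases after each start, were held for 30 of the 36 genes, and those of Hmox1, Gclc, Gsr, Prdx6, Sod3 and Msra were not analysed here. A match lay in a window of 7 of these 30 genes (23.3%), against 14% of 27025 genes in the same table. The 7 were Nfe2l2, Gclm, Txnrd1, Prdx1, Srxn1, Sod1 and Mt2. The search motif can overlap TGACTCA, the motif of AP-1 factors, and did so in Prdx1 and Mt2. TGACTCA alone lay in windows of 4 of the 30 genes and in 5.95% of all genes. A match describes the letters in the window and is not evidence of binding. The lines below run 5′ to 3′ on the strand of the gene and stop before the annotated start, with the motif match in capitals. Gclm, Prdx1 and Sod1 are shown as the genes called higher in db/db that hold a match, Txnrd1 and Mt2 as genes with a match that were not called, and Nqo1 and Cbr1 as genes called lower whose windows held none.
Gclm, chr3:122245407-122245486, plus strand: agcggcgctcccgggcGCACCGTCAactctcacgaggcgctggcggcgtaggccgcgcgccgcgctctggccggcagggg
Prdx1, chr4:116685449-116685543, plus strand: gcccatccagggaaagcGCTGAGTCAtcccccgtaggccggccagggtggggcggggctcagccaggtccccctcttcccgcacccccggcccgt
Sod1, chr16:90220612-90220753, plus strand: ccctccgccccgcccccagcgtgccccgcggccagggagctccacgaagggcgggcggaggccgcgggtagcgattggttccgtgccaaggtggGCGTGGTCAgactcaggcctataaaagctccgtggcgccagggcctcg
Txnrd1, chr10:82859056-82859178, plus strand, in an intron of a longer transcript: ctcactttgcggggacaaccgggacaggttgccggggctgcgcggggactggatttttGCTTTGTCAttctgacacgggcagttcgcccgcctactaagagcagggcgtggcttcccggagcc
Mt2, chr8:94172468-94172617, plus strand: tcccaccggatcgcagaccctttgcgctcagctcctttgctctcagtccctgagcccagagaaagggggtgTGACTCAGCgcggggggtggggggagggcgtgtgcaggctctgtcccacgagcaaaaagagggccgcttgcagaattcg
Nqo1, chr8:107403207-107403355, minus strand: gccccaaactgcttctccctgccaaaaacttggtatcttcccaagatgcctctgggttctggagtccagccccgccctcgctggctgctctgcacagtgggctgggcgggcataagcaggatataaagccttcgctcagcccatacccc
Cbr1, chr16:93607687-93607836, plus strand: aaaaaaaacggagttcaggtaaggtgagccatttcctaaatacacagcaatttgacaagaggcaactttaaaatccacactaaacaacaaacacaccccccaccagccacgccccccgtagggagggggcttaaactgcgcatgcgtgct
By call, a match was held by 3 of the 9 genes called higher that had a window, 0 of the 4 called lower and 4 of the 17 not called. With 4 genes, a count of 0 cannot be told apart from the 14% of all genes. The genes called higher whose windows held no match, Gss, Gpx1, Gpx4, Txn2, Prdx5 and Msrb1, are not shown. Regulatory sequence farther from the start was not searched.

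Total counts ran from 25937756 to 35931140 a library, and a limit of 3 counts for a gene with none came to 0.0759 to 0.120 CPM, the unit used for counts scaled to a common library size. All 6 listed markers of the proximal straight tubule rose in db/db, by 1.85-fold for Slc5a8 to 56.4-fold for Acsm3, with a summed level of 345 to 573 CPM in db/m and 3096 to 4166 CPM in db/db. Slc7a13 and Cyp7b1 in that list are also known as male-biased genes of the mouse kidney. General proximal tubule markers summed to 7764 to 10294 CPM in db/m and 9531 to 11850 CPM in db/db, with 1 of 7 called lower and 0 higher. All 3 distal convoluted tubule markers and 2 of 4 principal cell markers fell. Over all tested genes 13.1% were called higher and 10.8% lower, 24.0% in either direction. Macrophage markers summed to 51.2 to 134 CPM in db/m and 105 to 125 CPM in db/db, with 0 of 7 called, although Csf1r passed an unadjusted p of 0.05. Adipocyte markers were highest in replicate 3 of each group, at 103 CPM in db/m and 223 CPM in db/db, and neutrophil markers in db/m replicate 1, at 31.2 CPM. In whole tissue, fewer cells of a type and less RNA per cell cannot be told apart, and the part of these differences in the results below was not tested.

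Genes for glutathione synthesis, several peroxidases and 2 superoxide dismutases were higher in db/db, whereas Nqo1, Ephx1 and both carbonyl reductases were lower. By the edgeR quasi-likelihood test with Benjamini-Hochberg adjustment over all genes, called at an adjusted p below 0.05, 13 of the 36 genes rose in db/db, where 13.1% of all tested genes rose. In the same test 4 of the 36 fell, where 10.8% of all tested genes fell. Calls in either direction covered 24.0% of tested genes, and 28.7% of the 11552 at least as abundant as Cbr3, the least abundant gene of the 36. The median log2 fold change, positive where db/db was higher, was 0.31 over the 36 genes and −0.06 over all tested genes. The 3 db/m and 3 db/db libraries did not overlap for 27 of the 36 genes, 21 higher and 6 lower in db/db, where 44.6% of all tested genes did not overlap, 22.4% higher and 22.2% lower. Hmox1 passed the test with a rise of at least 2-fold, as did 3.71% of all tested genes, and Cbr1 and Cbr3 with a fall of that size, as did 4.10%. Scaling by total counts alone moved the median of all tested genes to −0.32 and that of the 36 genes to 0.05. Calls over all genes went from 2151 higher and 1774 lower to 1073 higher and 4876 lower. The 36 genes then gave 10 higher and 9 lower, with Gclc, Txn2 and Prdx6 no longer called and Nfe2l2, Keap1, Gsr, Gpx3 and Prdx4 called lower. Without replicate 3 of both groups, the libraries with the most adipocyte RNA, 8 genes rose and 5 fell, and over all tested genes the shares called were also smaller, at 6.40% higher and 4.02% lower. The DESeq2 Wald test on all libraries called 19 of the 36 higher and 5 lower, where it called 16.2% and 13.3% of all genes. It added Sod2, Txnip, Msra, Prdx3, Aifm2 and Txn1 upward and Nfe2l2 downward.

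**Figure D1:**
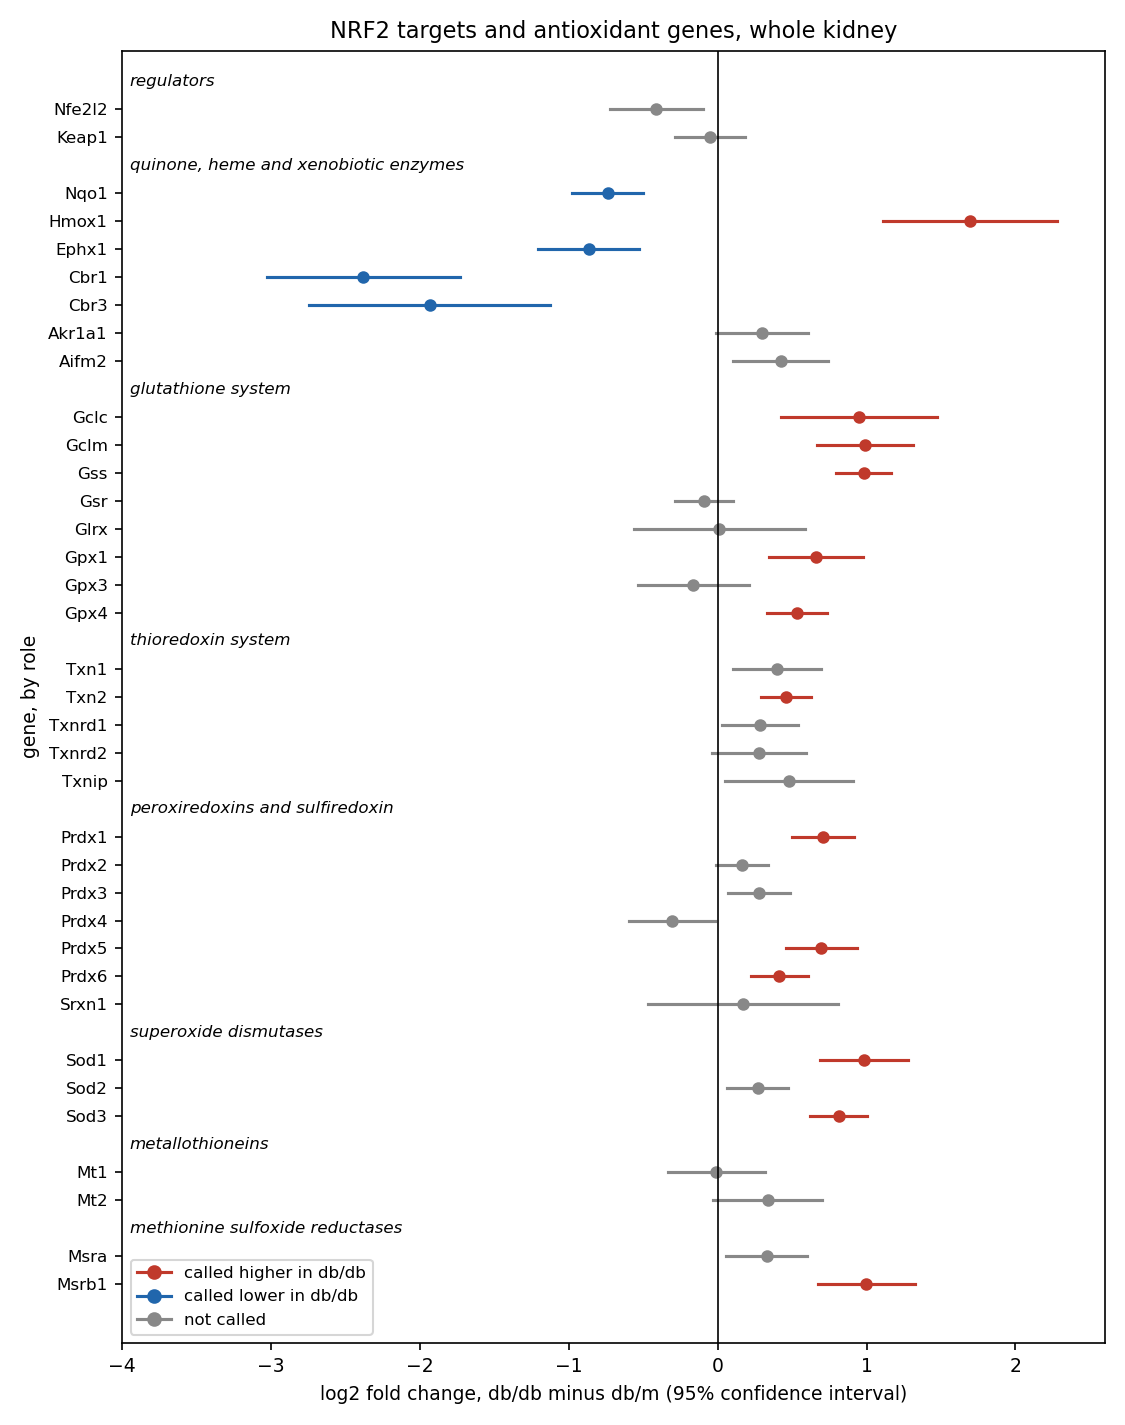
Log2 fold change of each of the 36 genes, db/db minus db/m, as points with 95% confidence intervals, grouped by role and coloured by call. The glutathione, peroxiredoxin and superoxide dismutase genes called all lie to the right of 0, and Nqo1, Ephx1, Cbr1 and Cbr3 lie to the left.

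NRF2 and KEAP1 transcripts were not called by the edgeR test with TMM scaling. Nfe2l2 stood at 96.7, 89.0 and 102 CPM in db/m replicates 1 to 3 and at 66.3, 63.1 and 86.9 CPM in db/db replicates 1 to 3. Each db/db library lay below each db/m library, with a log2 fold change of −0.41 (95% confidence interval −0.72 to −0.10) and an edgeR adjusted p of 0.0618. Without db/db replicate 3, the highest of its group, the edgeR adjusted p was 0.0223 and the log2 fold change −0.56. The DESeq2 Wald test on all libraries called Nfe2l2 lower, at a log2 fold change of −0.40 and an adjusted p of 0.0366, as did total-count scaling in edgeR, at −0.67 and 0.0113. Keap1, whose protein holds NRF2 for degradation, stood at 46.9, 51.6 and 41.0 CPM in db/m and 44.9, 45.8 and 44.2 CPM in db/db. The groups overlapped, with a log2 fold change of −0.05 (interval −0.28 to 0.18) that turned to 0.035 without db/m replicate 2.

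Hmox1, which breaks down heme and is a widely used NRF2 target, gave the largest rise of the 36 genes. Its level was 24.9, 28.2 and 21.1 CPM in db/m and 113, 57.7 and 70.5 CPM in db/db. All db/db libraries lay above all db/m libraries, the lowest being 2.33 times the db/m mean and the highest 4.55 times. The mean was 80.3 ± 28.7 CPM in db/db and 24.7 ± 3.57 CPM in db/m (SD, n = 3 libraries each, as below), a log2 fold change of 1.70 ± 0.25 (SE; edgeR adjusted p = 0.00405). Hmox1 is also made by macrophages that clear red cells. Of 7 macrophage markers 0 were called, where 24.0% of all tested genes were called. Csf1r lay higher in db/db, at 57.2 ± 14.3 CPM against 34.0 ± 10.9 CPM in db/m (edgeR adjusted p = 0.0874), and the other 6 lay lower. Red cell markers summed to 69.0 to 176 CPM in db/m and 69.2 to 306 CPM in db/db, with 0 of 6 called. With 7 and 6 genes, a count of 0 cannot be told apart from the share of 24.0%. The part of macrophages and red cells in the rise of Hmox1 was not tested.

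The NAD(P)H quinone reductase Nqo1, another classic NRF2 target, moved the opposite way. Its level was 115, 108 and 103 CPM in db/m and 72.3, 57.6 and 65.3 CPM in db/db. The groups were separate, and the log2 fold change was −0.74 ± 0.10 (edgeR adjusted p = 0.00327). Microsomal epoxide hydrolase, Ephx1, which hydrates reactive epoxides, also fell, from 101, 97.5 and 119 CPM to 50.8, 53.5 and 70.2 CPM, without overlap. Its log2 fold change was −0.87 ± 0.14 (edgeR adjusted p = 0.00665).

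Both carbonyl reductases, which reduce ketones and quinones with NADPH, fell by more than any other of the 36 genes. Cbr1 stood at 156, 263 and 120.4 CPM in db/m and 34.5, 31.8 and 37.4 CPM in db/db. The db/m libraries spread widely and db/db libraries narrowly, and the db/m mean was 5.21 times the db/db mean (log2 fold change −2.38 ± 0.28, edgeR adjusted p = 0.00181). Cbr3, a neighbouring paralog of Cbr1, stood at 7.88, 7.11 and 3.38 CPM in db/m and 1.44, 1.82 and 1.53 CPM in db/db. The db/m replicate 3 library was the lowest of its group but above each db/db library, with a log2 fold change of −1.93 ± 0.35 (edgeR adjusted p = 0.00841). How reads shared by near-identical genes were counted is unstated in the sources used here.

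The other enzymes of this group were not called. Akr1a1, an aldehyde reductase that in rodents also serves vitamin C synthesis, was at 2587 ± 253 CPM in db/db and 2108 ± 279 CPM in db/m, with overlap. Aifm2, which recycles ubiquinone against lipid peroxidation, was at 32.6 ± 3.32 CPM in db/db and 24.3 ± 3.76 CPM in db/m, without overlap (edgeR adjusted p = 0.0612). Without db/m replicate 1 Akr1a1 was called higher (edgeR adjusted p = 0.0351), and without db/m replicate 2 Aifm2 was (edgeR adjusted p = 0.0362). The count of this group called higher then went from 1 to 2. The share of all tested genes called higher went from 13.1% to 12.0% and 8.36% in these fits.

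**Figure D2:**
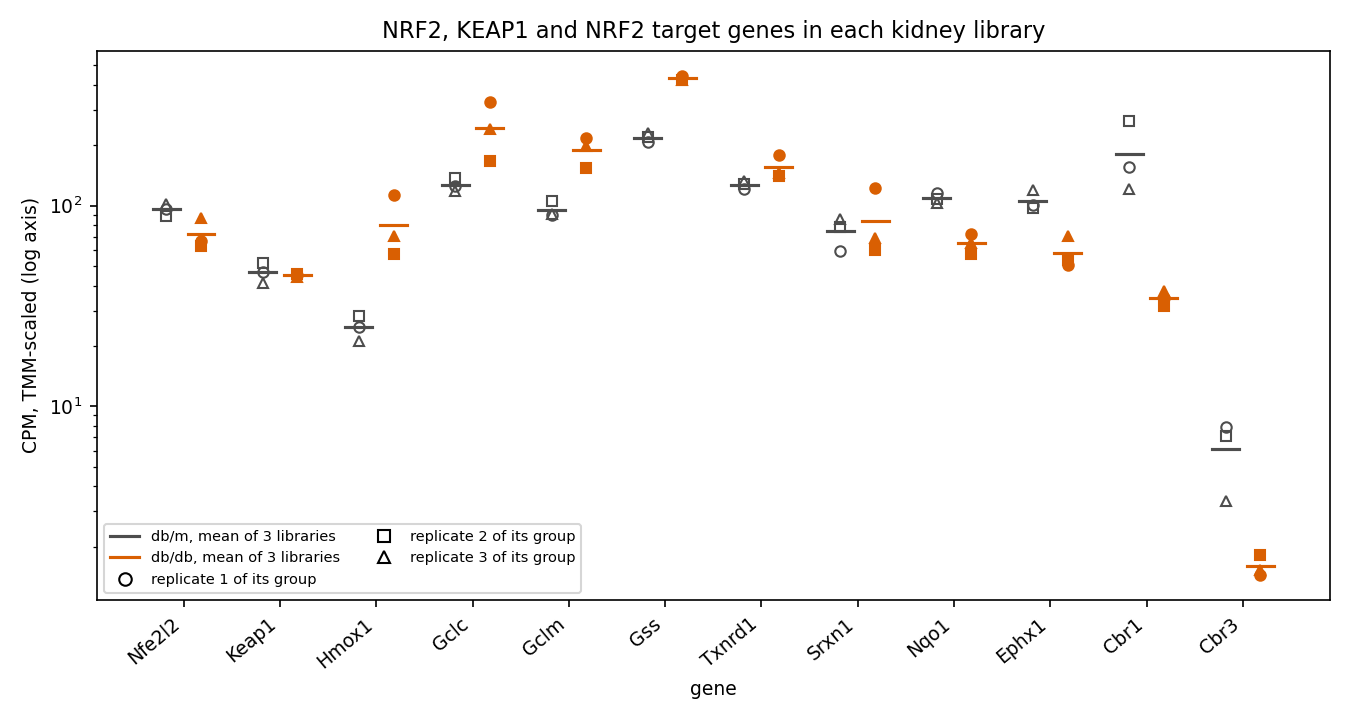
CPM on a log axis for NRF2, KEAP1 and 10 NRF2 target and related genes in each library, db/m as open and db/db as filled symbols, with a bar at the mean of each group. Hmox1, Gclc, Gclm and Gss are higher in each db/db library than in any db/m library, Nqo1, Ephx1, Cbr1 and Cbr3 lower, and Keap1 and Srxn1 overlap.

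Glutathione is made in a pair of steps, and transcripts for both steps rose. Glutamate-cysteine ligase, the rate-limiting enzyme, consists of a catalytic subunit (Gclc) and a modifier subunit (Gclm). Gclc stood at 126, 137 and 118 CPM in db/m and 328, 167 and 240.2 CPM in db/db. The groups did not overlap, but db/db replicate 2 was close to the db/m range and db/db replicate 1 was 2.58 times the db/m mean. Its log2 fold change of 0.95 ± 0.22 passed at an edgeR adjusted p of 0.0225. That call was lost without db/m replicate 1, 2 or 3 or db/db replicate 3, at edgeR adjusted p of 0.0515, 0.0556, 0.0585 and 0.0625.

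Gclm was steadier, at 90.1, 106 and 91.1 CPM in db/m and 216, 155 and 198 CPM in db/db. All db/db libraries were higher, with a log2 fold change of 0.99 ± 0.14 (edgeR adjusted p = 0.00333). Glutathione synthetase, Gss, which adds glycine in the closing step, stood at 207, 219 and 229 CPM in db/m and 445, 423 and 424 CPM in db/db. The db/db libraries lay within 1.05-fold of each other and at 1.97 times the db/m mean, with a log2 fold change of 0.98 ± 0.08 (edgeR adjusted p = 0.000478).

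Glutathione peroxidases use glutathione to reduce peroxides, and the intracellular members rose while the secreted member did not pass the test. Gpx1, the abundant cytosolic enzyme, stood at 1907, 1491 and 1525 CPM in db/m and 2424, 2879 and 2478 CPM in db/db. The groups did not overlap, and the log2 fold change was 0.66 ± 0.13 (edgeR adjusted p = 0.0132). Gpx4, which reduces lipid peroxides in membranes and guards against ferroptosis, went from 864, 828 and 776 CPM to 1162, 1231 and 1178 CPM. All db/db libraries were higher, with a log2 fold change of 0.53 ± 0.09 (edgeR adjusted p = 0.00612). Without replicate 3 of both groups the calls of Gpx1, Gpx4 and Gclc were lost, so 2 of the 8 glutathione genes rose in place of 5. Over all tested genes the share that rose also fell, from 13.1% to 6.40%.

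The plasma enzyme Gpx3 was at 24017 ± 3856 CPM in db/db and 26908 ± 1909 CPM in db/m, with overlap and a log2 fold change of −0.16 (interval −0.54 to 0.21). Glutathione reductase, Gsr, which regenerates reduced glutathione, was at 130.2 ± 10.6 CPM in db/db and 139 ± 3.19 CPM in db/m (log2 fold change −0.09, interval −0.29 to 0.10). Glutaredoxin, Glrx, which removes glutathione from proteins, was at 53.5 ± 10.5 CPM and 53.2 ± 17.7 CPM. Its log2 fold change of 0.01 had an interval of −0.57 to 0.59 and turned to −0.24 with total-count scaling. These 3 genes were not called, and total-count scaling called Gsr and Gpx3 lower.

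In the thioredoxin system, which reduces disulfides in proteins, the mitochondrial thioredoxin was the gene called. Txn2 stood at 170.3, 174 and 170.1 CPM in db/m and 228, 246 and 233 CPM in db/db. The groups were tight and separate, with a log2 fold change of 0.46 ± 0.07 (edgeR adjusted p = 0.00538). This call was lost with total-count scaling, which gave 0.20, and without replicate 3 of both groups.

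Cytosolic thioredoxin reductase, Txnrd1, a selenoenzyme and NRF2 target, stood at 121, 129 and 132 CPM in db/m and 179.6, 139.8 and 146 CPM in db/db. The groups did not overlap, but db/db replicates 2 and 3 lay close to the db/m libraries (log2 fold change 0.28, interval 0.03 to 0.54, edgeR adjusted p = 0.101). Cytosolic thioredoxin, Txn1, was at 403 ± 27.9 CPM in db/db and 306 ± 45.9 CPM in db/m, without overlap (edgeR adjusted p = 0.0576). With DESeq2 size factors in place of TMM, Txn1 was called, and the thioredoxin genes called higher went from 1 to 2. The DESeq2 Wald test called 3, adding Txn1 and Txnip. Of all tested genes, 13.1% were called higher with TMM, 13.9% with DESeq2 size factors and 16.2% by the DESeq2 Wald test. The mitochondrial reductase Txnrd2 was at 30.6 ± 2.96 CPM and 25.3 ± 3.67 CPM, with overlap.

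Txnip binds and inhibits thioredoxin and is induced by glucose through MondoA and ChREBP. It stood at 826 ± 93.1 CPM in db/db and 592 ± 142 CPM in db/m, without overlap (log2 fold change 0.48, interval 0.05 to 0.91, edgeR adjusted p = 0.097). Without db/m replicate 3, the highest db/m library, the edgeR adjusted p was 0.042 and the log2 fold change 0.66.

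Peroxiredoxins reduce peroxides with electrons from thioredoxin or, for Prdx6, from glutathione. Of 7 genes in the group, 3 rose and 0 fell, where 13.1% of all tested genes rose and 10.8% fell. With 7 genes, a count of 0 lower cannot be told apart from that share. Prdx1, a cytosolic member and NRF2 target, stood at 739.6, 709.7 and 646 CPM in db/m and 1116, 1129 and 1176 CPM in db/db. Each db/db library was higher, and the log2 fold change was 0.71 ± 0.09 (edgeR adjusted p = 0.00241).

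Prdx5, found in mitochondria, peroxisomes and cytosol, went from 1398, 1464 and 1318 CPM to 2168, 2463 and 2146 CPM. The groups were separate, with a log2 fold change of 0.70 ± 0.10 (edgeR adjusted p = 0.00391). Prdx6 went from 204, 193 and 217 CPM to 259, 284 and 273 CPM, again without overlap. Its log2 fold change of 0.41 ± 0.08 (edgeR adjusted p = 0.0125) was not called with total-count scaling, at 0.15, or without replicate 3 of both groups.

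Mitochondrial Prdx3 was at 187 ± 14.6 CPM in db/db and 154 ± 8.42 CPM in db/m (edgeR adjusted p = 0.0608), and cytosolic Prdx2 at 230.2 ± 11.2 CPM and 206 ± 3.01 CPM (edgeR adjusted p = 0.152), both without overlap. With total-count scaling the log2 fold change of Prdx2 turned from 0.16 to −0.10. Prdx4 of the endoplasmic reticulum lay the other way, at 19.1 ± 0.916 CPM in db/db and 23.6 ± 3.18 CPM in db/m (log2 fold change −0.31, edgeR adjusted p = 0.108).

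Sulfiredoxin, Srxn1, an NRF2 target that repairs overoxidized peroxiredoxins, stood at 59.1, 78.6 and 85.4 CPM in db/m and 122, 60.2 and 68.8 CPM in db/db. The db/db replicate 1 library was above all others, and the other two lay among the db/m libraries. The log2 fold change of 0.17 (interval −0.47 to 0.81, edgeR adjusted p = 0.672) turned to −0.20 without db/db replicate 1 and to −0.090 with total-count scaling.

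Superoxide dismutases turn superoxide into hydrogen peroxide, and the cytosolic and extracellular enzymes rose. Sod1, the cytosolic copper-zinc enzyme, stood at 637, 520.0 and 515 CPM in db/m and 1012, 1232 and 1063 CPM in db/db. The groups were well apart, with a log2 fold change of 0.98 ± 0.13 (edgeR adjusted p = 0.00242). Sod3, the secreted enzyme, went from 317, 326 and 355 CPM to 593, 579 and 579.7 CPM. Its db/db libraries were within 1.02-fold of each other, and the log2 fold change was 0.81 ± 0.08 (edgeR adjusted p = 0.00115). Mitochondrial Sod2 was at 364 ± 4.44 CPM in db/db and 303 ± 25.8 CPM in db/m, without overlap (log2 fold change 0.27, edgeR adjusted p = 0.0641). Without db/m replicate 1, the highest db/m library for Sod2, its edgeR adjusted p was 0.0267.

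Methionine sulfoxide reductases repair oxidized methionine. Msrb1, a selenoprotein, stood at 186, 147 and 193 CPM in db/m and 308, 399.5 and 346 CPM in db/db. All db/db libraries were higher, with a log2 fold change of 1.0 ± 0.14 (edgeR adjusted p = 0.00337). Msra was at 348 ± 35.0 CPM in db/db and 277 ± 31.7 CPM in db/m, without overlap (edgeR adjusted p = 0.0796). It was called without db/m replicate 1 (edgeR adjusted p = 0.0369), which took the count of this pair from 1 to 2. All tested genes called higher then went from 13.1% to 12.0%.

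Metallothioneins bind zinc and copper and react with oxidants, and both genes overlapped between groups. Mt1 was at 196 ± 18.7 CPM in db/db and 198 ± 33.8 CPM in db/m, with a log2 fold change of −0.01 (interval −0.33 to 0.32) that turned to 0.0089 with DESeq2 size factors. Mt2 was at 75.9 ± 14.9 CPM and 60.1 ± 6.67 CPM (log2 fold change 0.34, edgeR adjusted p = 0.156), and without db/db replicate 2, its lowest db/db library, the edgeR adjusted p was 0.047.

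Levels were compared between genes as CPM per kb of transcript, using GENCODE M21 lengths. Gpx3 was far above the rest, at 16881 ± 1197 CPM per kb in db/m and 15067 ± 2419 in db/db. Gpx1, Akr1a1, Prdx5, Sod1 and Gpx4 came next in that order in both groups, from 1531 down to 858 CPM per kb in db/m and from 2420 down to 1241 in db/db. Within that order, Gpx1 and Akr1a1 differed by less than their SDs in db/m, at 1531 ± 215 and 1484 ± 196, as did Sod1 and Gpx4, at 869 ± 108 and 858 ± 46.0. In db/db, Akr1a1, Prdx5 and Sod1 did not differ beyond their SDs, at 1822 ± 178, 1790 ± 140.2 and 1720 ± 180. These SDs are between libraries and take no account of the genes being measured in the same libraries. Cbr1 went from rank 12 in db/m to rank 31 in db/db and Hmox1 from rank 32 to rank 22, and Cbr3 was last in both. Gpx3 alone took 69.1% to 70.2% of the summed CPM of the 36 genes in db/m and 57.1% to 62.0% in db/db. All 36 genes summed to 36235 to 41321 CPM in db/m and 37836 to 45877 CPM in db/db, so the groups overlapped. Without Gpx3, the other genes summed to 11190 to 12462 CPM in db/m and 16217 to 17412 CPM in db/db, without overlap.

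**Figure D3:**
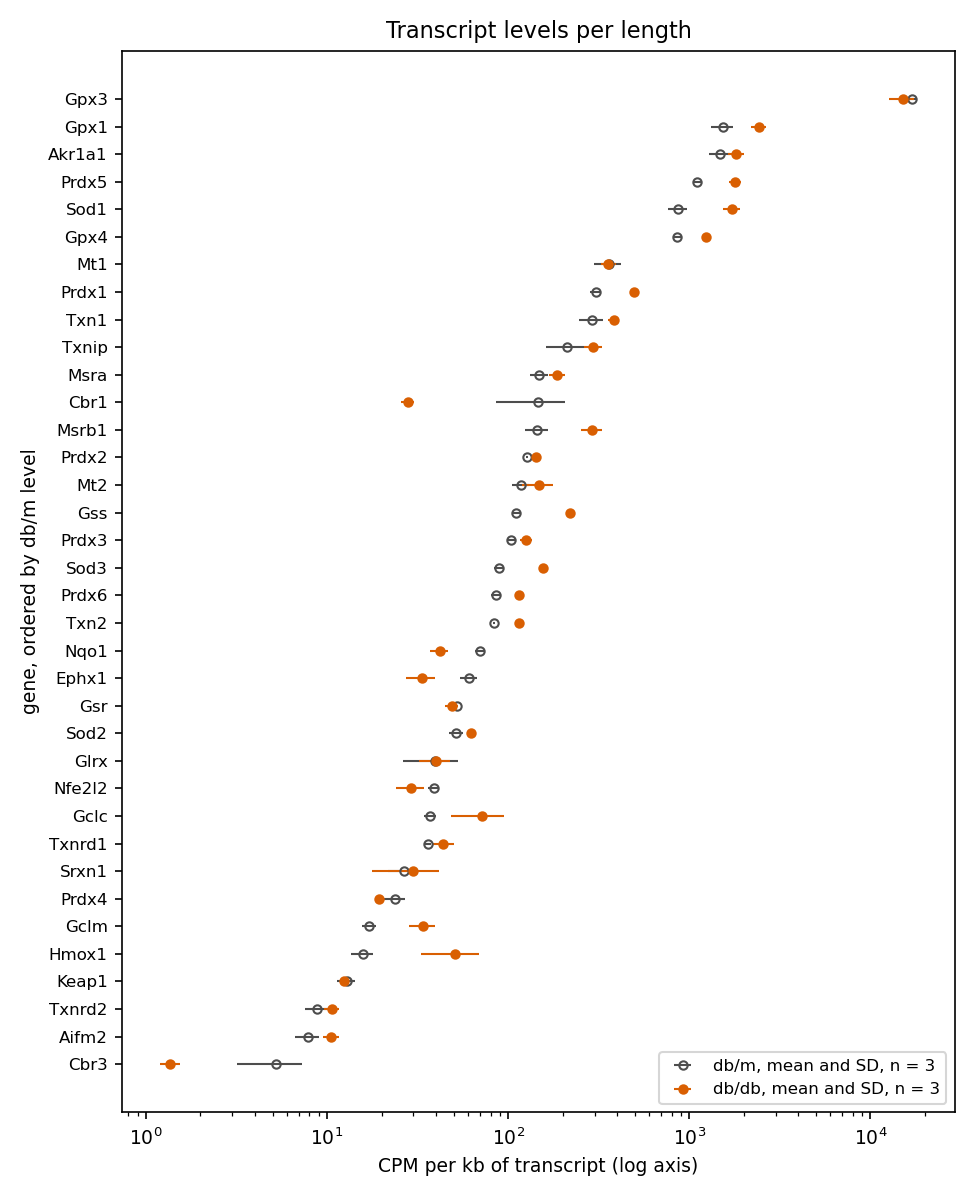
Transcript level of each gene as CPM per kb of transcript on a log axis, as the mean and SD of 3 libraries, db/m open and db/db filled, ordered by the db/m level. Gpx3 stands alone at the top at 16881 CPM per kb in db/m, and Cbr3 is lowest in both groups.

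The db/db libraries differed among themselves in an order that several NRF2 targets shared. Hmox1, Gclc, Gclm, Txnrd1 and Srxn1 were each highest in db/db replicate 1 and lowest in db/db replicate 2, with a highest to lowest ratio of 1.95 for Hmox1, 1.96 for Gclc, 1.40 for Gclm, 1.28 for Txnrd1 and 2.03 for Srxn1. Gss, Gsr, Nqo1 and Sod3 had the same order, with ratios of 1.05 for Gss, 1.15 for Gsr, 1.25 for Nqo1 and 1.02 for Sod3. Other genes ran differently, since Sod1, Gpx1, Gpx4, Txn2, Prdx5, Prdx6 and Msrb1 were highest in db/db replicate 2. The NRF2 target Prdx1 was highest in replicate 3 and lowest in replicate 1, and Ephx1 and Cbr3 were also lowest in replicate 1. Over the 13 genes that rose, 5 were highest in replicate 1, 7 in replicate 2 and 1 in replicate 3. All 6 proximal straight tubule markers were also highest in replicate 1 and lowest in replicate 2. Their ratios ran from 1.07 for Slc5a8 to 2.52 for Cyp7b1. Summed thick ascending limb markers had the same order, at 3859, 1946 and 2851 CPM in db/db replicates 1 to 3. So did summed macrophage markers, at 125, 105 and 120 CPM, and Csf1r alone, at 72.4, 44.1 and 55.1 CPM. Kcnj1, Cldn16 and the macrophage markers other than Csf1r did not, nor did the sums of the other marker lists. With 3 libraries this order is a description, and the genes named first were chosen after their values were seen. How many of all tested genes share the order was not counted, and the part of these markers in it was not tested.

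**Figure D4:**
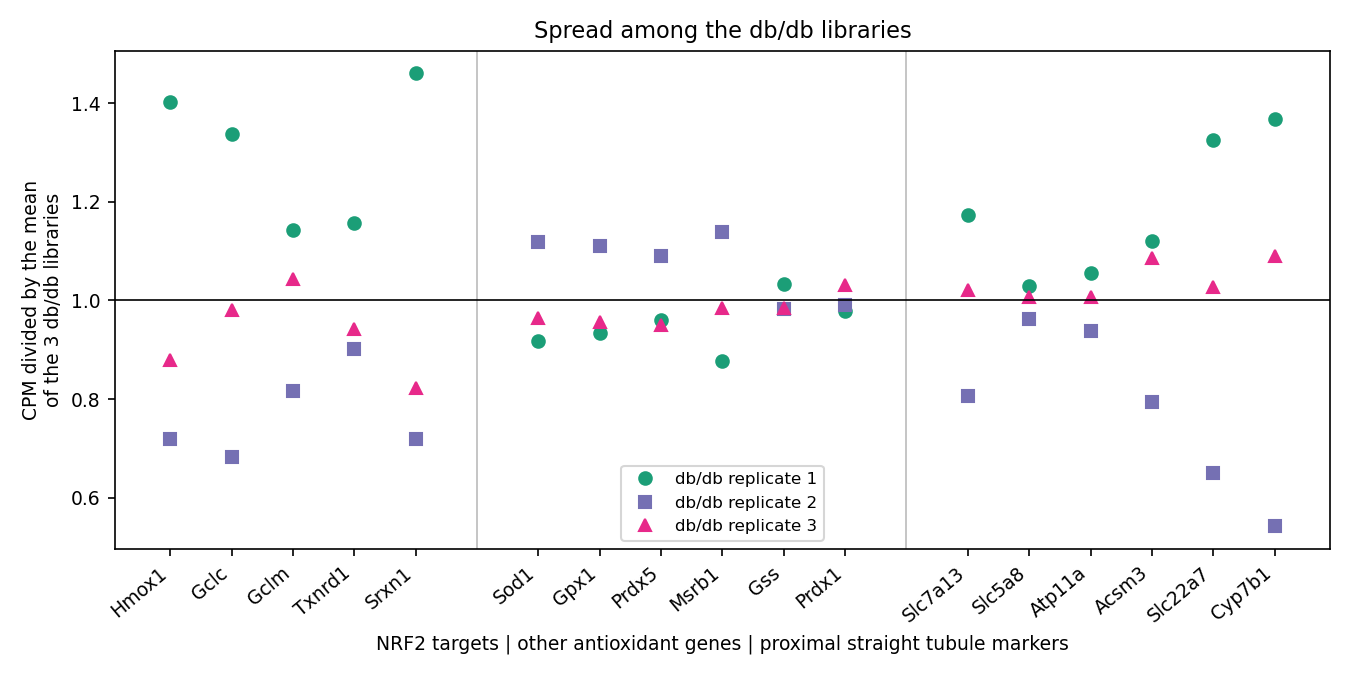
CPM in each db/db library divided by the mean of the 3 db/db libraries. Shown are 5 NRF2 targets, 6 other antioxidant genes, among them the NRF2 target Prdx1, and 6 proximal straight tubule markers. The genes were chosen after their values were seen, and the NRF2 target Nqo1 is not shown. Replicate 1 is above and replicate 2 below the mean for the 5 NRF2 targets shown first and for the markers, whereas Prdx1 is lowest in replicate 1 and Sod1, Gpx1, Prdx5 and Msrb1 are highest in replicate 2.

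Around the 36 genes, 119 further genes of redox metabolism in 10 lists were read in the same fit. Of 114 that were tested, 31 rose and 15 fell, where 13.1% of all tested genes rose and 10.8% fell, and the median log2 fold change was 0.18. Total-count scaling gave 18 higher and 26 lower, where 6.55% and 29.8% of all tested genes were called. Leaving out replicate 3 of both groups gave 17 and 10, where 6.40% and 4.02% were called, and among the genes named below the calls of Bach1, Bach2, Fth1, Selenow, Sephs2, Eefsec, Cyba and Dao were then lost. Nfe2, Slc7a11, Gpx2, Nox1 and Duox2 were not tested because of low counts.

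Among 12 partners and regulators of NRF2, 3 rose and 1 fell, where 13.1% of all tested genes rose and 10.8% fell. Sqstm1, a cargo receptor that draws KEAP1 into autophagy, rose from 534 ± 23.1 to 1027 ± 19.4 CPM (log2 fold change 0.94, edgeR adjusted p = 0.000627). Bach1, which competes with NRF2 and represses Hmox1, fell from 30.8 ± 2.66 to 21.4 ± 1.42 CPM (log2 fold change −0.52, edgeR adjusted p = 0.012), and without replicate 3 of both groups this call, the list's single fall, was lost (edgeR adjusted p = 0.0636). Its relative Bach2 rose from 4.13 ± 0.939 to 7.36 ± 0.859 CPM (edgeR adjusted p = 0.0304), a call that was lost without db/m replicate 1 or 2 or db/db replicate 2 or 3. Leaving out any of those 4 libraries left 1 gene of the list higher, and leaving out db/m replicate 3 left 5, as did the DESeq2 Wald test on all libraries. When db/m replicate 1 was left out, 2 genes fell.

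Among 15 other reported NRF2 targets, 2 rose and 3 fell, where 13.1% of all tested genes rose and 10.8% fell. The share that rose was close to that of all tested genes. The DESeq2 Wald test called 4 higher. The ferritin heavy chain Fth1, which stores iron, rose from 4728 ± 621 to 7388 ± 649 CPM (log2 fold change 0.64, edgeR adjusted p = 0.0158), and without db/db replicate 2 its edgeR adjusted p was 0.0519, which left 1 gene higher. Htatip2 rose from 23.7 ± 1.11 to 46.1 ± 0.184 CPM (edgeR adjusted p = 0.000499). The efflux pumps Abcc3 and Abcc4, which export conjugated organic anions, fell: Abcc3 from 33.5 ± 17.5 to 2.68 ± 1.44 CPM and Abcc4 from 119 ± 30.0 to 23.1 ± 3.19 CPM. Their log2 fold changes were −3.64 for Abcc3 (edgeR adjusted p = 0.0035) and −2.36 for Abcc4 (edgeR adjusted p = 0.000535).

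NADPH feeds both the glutathione and the thioredoxin reductases. Of 11 genes for its supply 4 rose and 3 fell, against 13.1% and 10.8% of all tested genes. Malic enzyme Me1 rose from 142 ± 30.9 to 573 ± 24.4 CPM (log2 fold change 2.01, edgeR adjusted p = 0.000435), and NAD kinase Nadk from 126 ± 10.4 to 201 ± 6.38 CPM (edgeR adjusted p = 0.00249). Cytosolic Idh1 fell from 526 ± 26.1 to 311 ± 21.6 CPM (log2 fold change −0.76, edgeR adjusted p = 0.0019). Nnt, the mitochondrial transhydrogenase, fell from 178 ± 21.4 to 97.6 ± 4.33 CPM (log2 fold change −0.87, edgeR adjusted p = 0.00207). Some mouse strains carry a deletion in Nnt, and the strain is unstated here.

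Glutathione turnover and the glyoxalase route held 12 tested genes, of which 7 rose and 1 fell, against 13.1% and 10.8% of all tested genes. Ggt1, which starts the breakdown of glutathione at the brush border, rose from 662 ± 69.1 to 1791 ± 230.0 CPM (log2 fold change 1.44, edgeR adjusted p = 0.000769). Ggct, which acts on gamma-glutamyl products inside the cell, rose from 12.3 ± 2.90 to 61.8 ± 5.26 CPM (log2 fold change 2.33, edgeR adjusted p = 0.000358). Glo1, which clears methylglyoxal with glutathione as cofactor, fell from 250.4 ± 25.8 to 114 ± 8.06 CPM (log2 fold change −1.14, edgeR adjusted p = 0.000773). Chac1, which degrades glutathione in the cytosol and was named after its values were seen, stood at 0.291, 0.531 and 1.96 CPM in db/m and 13.4, 11.6 and 16.3 CPM in db/db (edgeR adjusted p = 0.00506).

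Of 17 other peroxidase, catalase and selenoprotein genes, 4 rose and 1 fell, against 13.1% and 10.8% of all tested genes. Selenop, the plasma selenium carrier, rose from 657 ± 22.6 to 2384 ± 53.8 CPM (log2 fold change 1.86, edgeR adjusted p = 5.77e-05), and the lactonase Pon2 from 14.8 ± 1.84 to 38.0 ± 1.31 CPM (edgeR adjusted p = 0.000499). Selenow fell from 84.3 ± 7.48 to 55.0 ± 3.22 CPM (edgeR adjusted p = 0.00455). Catalase, Cat, overlapped, at 866 ± 30.1 CPM in db/db and 745 ± 143 CPM in db/m (log2 fold change 0.22, −0.039 with total-count scaling). Without db/m replicate 1, the highest db/m library for Cat, its edgeR adjusted p was 0.0217, and 8 genes of the list rose in place of 4. The DESeq2 Wald test on all libraries called 9 higher.

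In the wider thioredoxin and glutaredoxin family 5 of 15 genes rose and 0 fell, against 13.1% and 10.8% of all tested genes. Txnl1 rose from 65.3 ± 1.58 to 93.7 ± 6.01 CPM (edgeR adjusted p = 0.00445) and Glrx5, a mitochondrial iron-sulfur cluster carrier, from 90.3 ± 2.05 to 129.7 ± 6.30 CPM (edgeR adjusted p = 0.00349). Of 7 genes for selenocysteine insertion 2 rose, against 13.1% of all tested genes. Eefsec, the elongation factor for selenocysteine, rose from 30.6 ± 1.32 to 41.7 ± 2.03 CPM (edgeR adjusted p = 0.00945), a call lost with total-count scaling (0.19, edgeR adjusted p = 0.0899) and without replicate 3 of both groups (edgeR adjusted p = 0.0702). Sephs2, which makes the selenium donor, rose from 336 ± 36.3 to 459 ± 31.5 CPM (edgeR adjusted p = 0.0228), a call lost without db/m replicate 2 or 3 or db/db replicate 2 or 3, each of which left 1 gene higher.

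Of 13 tested enzymes and subunits that produce oxidants, 6 fell and 2 rose, where 10.8% of all tested genes fell and 13.1% rose. Their median log2 fold change was −0.53. Nox4, the main NADPH oxidase of the tubule, fell from 334 ± 82.6 to 149 ± 2.74 CPM (log2 fold change −1.17, edgeR adjusted p = 0.00376), while its partner subunit Cyba rose from 422 ± 37.6 to 691 ± 111 CPM (edgeR adjusted p = 0.0102). The hydroxyacid oxidase Hao2, which releases hydrogen peroxide, fell from 981 ± 56.5 to 141 ± 8.48 CPM (log2 fold change −2.80, edgeR adjusted p = 2.97e-05). The amine oxidase Maob, named after its values were seen, fell from 12.4 ± 4.43 to 3.38 ± 1.18 CPM (edgeR adjusted p = 0.00984). Dao, the D-amino acid oxidase, rose from 364 ± 46.5 to 480.5 ± 44.3 CPM (edgeR adjusted p = 0.0486), and this call held in 1 of the 6 fits that left out a library, the one without db/m replicate 1. In the other 5 fits 1 gene of the list rose.

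Metal-responsive genes beside the metallothioneins gave 0 calls among 6, where 24.0% of all tested genes were called. Of these, 1 passed an unadjusted edgeR p of 0.05 and 1 was called by the DESeq2 Wald test. When db/m replicate 3 was left out, 1 of them rose. Of 6 genes around MondoA and ChREBP, which also control Txnip, 2 rose, against 13.1% of all tested genes. Mlx, their shared dimer partner, rose from 35.8 ± 1.21 to 55.9 ± 4.77 CPM (edgeR adjusted p = 0.00336). The arrestin Arrdc2 rose from 21.4 ± 10.5 to 108 ± 22.6 CPM (log2 fold change 2.34, edgeR adjusted p = 0.00378).

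**Figure D5:**
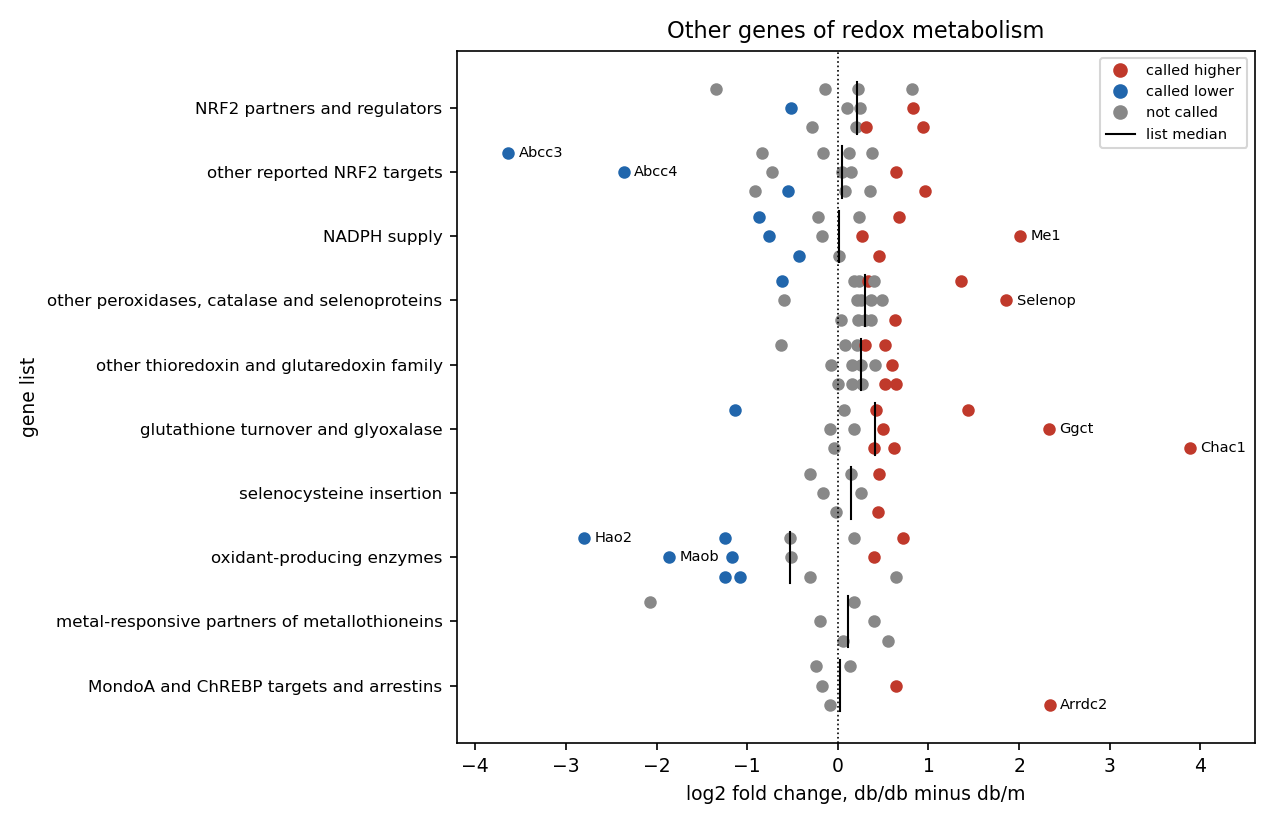
Log2 fold change, db/db minus db/m, of 114 further redox genes in 10 lists, 1 point a gene coloured by call, with a black bar at each list median. Called genes with a log2 fold change over 1.8 in size are labelled, among them Me1, Selenop, Ggct and Chac1 on the right and Abcc3, Abcc4 and Hao2 on the left.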

How the data were processed

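Polyadenylated RNA of whole kidney was sequenced from 3 db/m and 3 db/db libraries, grouped by their titles. The libraries were strand-specific and made from oligo(dT)-selected RNA, per the labels' protocols. Per the submitters' processing notes, the tools were DESeq2, fastp, FastQC, HISAT2, SAMtools and StringTie. Their versions, the genome build, the annotation and the counting settings are unstated in the sources used here. The authors deposited raw whole-number counts, 1 row per gene symbol.

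From these, genes were filtered with filterByExpr (16373 kept) and scaled by TMM factors, 1.06 to 1.12 in db/m and 0.901 to 0.923 in db/db. They were compared with the quasi-likelihood test of edgeR 4.0.16 (R 4.3.3), with no covariate and Benjamini-Hochberg adjustment at 0.05. CPM values use TMM-scaled library sizes. The SE is the size of the log2 fold change over the square root of F. No libraries were duplicates (chi-square over degrees of freedom within groups, 15.9 to 59.5). The procedure was tested on simulated counts. Promoter windows came from RefSeq GRCm38.p6, and transcript lengths are those of the longest principal transcript in GENCODE M21, which may not match the authors' annotation.

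The genes, lists and tests were chosen with earlier results of these data known. Values per library are given for each gene of the 36 that was called and for Nfe2l2, Keap1, Nqo1, Hmox1, Gclc, Gclm, Txnrd1 and Srxn1. From each further list up to 2 genes called higher and 2 lower, by smallest p, are named, with Nnt and Cat whatever their p. Alternatives were DESeq2 size factors, total counts, the DESeq2 1.42.0 Wald test, limma-voom (limma 3.58.1), no filter, a stricter filter (1 CPM and 10 counts in 3 libraries), a replicate block, and leaving out each library. Leaving out replicate 3 of both groups was added after seeing the data.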

Additional observations from a re-analysis of the deposited data

How the results depend on the processing

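With 3 libraries a group, a gene that was not called may still differ. Genes called numbered 3925, against 5949 with total counts, 2286 with the replicate number as a block, 2246 to 3527 when a library was left out (2246 without db/m replicate 2 and 2508, 2459 and 2265 without db/db replicates 1, 2 and 3) and 1712 without replicate 3 of both groups. Of the 36 genes, 9 fell with total counts, where 29.8% of all tested genes fell. Without replicate 3 of both groups 8 rose, where 6.40% of all tested genes rose. Of the further genes, 18 rose and 26 fell with total counts, where 6.55% and 29.8% of all tested genes did. Without replicate 3 of both groups 17 of them rose. When a library was left out, 12 to 15 of the 36 rose and 4 to 5 fell. The further genes then gave 23 to 32 higher and 11 to 16 lower. Over all tested genes, 8.15% to 12.0% rose and 5.10% to 9.11% fell in those fits.

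Whether the replicate numbers pair the libraries is unstated in the sources used here. Same-numbered deviations correlated at −0.15, 0.06 and 0.14, and not every library correlated best with its own number. With 3 libraries a group these correlations cannot decide the question. Under the block 10 of the 36 rose and 4 fell, where 8.02% and 5.94% of all tested genes did. Gpx1, Prdx6 and Gclc were then not called.

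Total counts reversed Glrx (−0.24), Prdx2 (−0.10), Srxn1 (−0.090) and Cat (−0.039). Mt1 turned to 0.0089 with DESeq2 size factors, 0.0088 with the DESeq2 Wald test, 0.0020 with limma-voom and 0.0013 with the block. Leaving out a library, or replicate 3 of both groups, gave −0.12 to 0.035 for Keap1, −0.26 to 0.32 for Glrx, −0.20 to 0.41 for Srxn1 and −0.16 to 0.13 for Mt1. The cause was not tested. Single-gene values were also counted under the other settings, leaving aside that without replicate 3 of both groups. Of these, 762 kept direction and side of the threshold, 33 lost the call, 21 gained it and 16 changed direction.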
